A study of Mus musculus with 4 samples.

Results

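Interferon regulatory factors (IRFs) are transcription factors that share a DNA-binding domain recognising the GAAA core of interferon-stimulated response elements. The genes described here are Irf1, Irf2, Irf3, Irf4, Irf5, Irf7, Irf8 and Irf9, taken by exact symbol from the deposited tables, which gives 8 of the 22558 genes counted. RNA was sequenced from FACS-sorted lung group 2 innate lymphoid cells (ILC2s), innate lymphocytes that answer IL-33 with type 2 cytokines. There were 2 libraries from wildtype C57BL/6 mice (WT) and 2 libraries from mice of the same background strain labelled ICAM-1 KO, which per the study's methods carry a constitutive Icam1 deficiency in every cell. Mice of both groups were 6 weeks old per the labels, were given 3 intranasal challenges with 0.5 µg rmIL-33, and each library is a pool of 4 mice whose lungs were taken on day 4.

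IRF3 and IRF7 are activated by kinases downstream of nucleic acid sensors and drive interferon genes, and IRF5 acts downstream of Toll-like receptors. IRF9 binds DNA after type I interferon, while IRF1 activates and IRF2 mostly represses genes through the same elements. IRF4 and IRF8 are factors of lymphoid and myeloid cells that bind with partners such as BATF and PU.1, and IRF4 is known for its part in IL-9 and type 2 cytokine expression in lymphocytes.

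Between 24796148 and 28782471 counts fell on genes in each library, and 11711 genes were tested. Counts of Icam1 were 2579 and 2630 in WT but 2812 and 3453 in the ICAM-1 KO group (edgeR's quasi-likelihood test, log2 fold change 0.33, adjusted p = 0.0745), so the RNA did not check the labels. From flow cytometry of lung ILC2s, the study reports that its ICAM-1-deficient mice lack the ICAM-1 protein, which RNA counts do not measure. The group is called by its label throughout, as the KO-labelled libraries. Of 17 ILC2 markers, 6 fell (Arg1, Il5, Il13, Id2, Calca and Il2ra) and 1 rose (Klrg1), against 4.97% and 8.8% of all genes tested. The other 10 did not pass the test, among them Gata3, Il1rl1, Il7r, Rora and Icos. The summed normalized count of the list was 8939 and 9719 in WT and 7306 and 7446 in the KO-labelled libraries, a sum that weighs abundant genes most. No marker in the lists of other cell types was at or under 3 counts in all 4 libraries, and these lists are given beside the genes they bear on. In bulk RNA of sorted cells, a lower share of cells of one type and less RNA per cell cannot be told apart.

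All 8 IRF genes were expressed in WT, with Irf4 and Irf1 at the highest level per length used here and Irf8 and Irf9 at the lowest. To compare genes, counts were divided by the length of all exons of the gene in kb and by the total of the library, as in RPKM values. This length joins the annotated exons of all transcripts, so the order of the genes depends on the annotation. For Irf7 it was 3776 bases, as long as the gene itself, and for Irf9 it was 5386 bases, most of the gene. A longer length gives a lower level. On this per-length scale Irf4 had a level of 22 and 37.1 in the 2 WT libraries, and Irf1 one of 24.3 and 27.5, so these genes were not separated beyond their spread. Both libraries of Irf5, at 17.4 and 15.6, lay below those of Irf1 and overlapped those of Irf3, at 15.1 and 16.7. Irf7 followed with 7.7 and 7.65, Irf2 with 6.41 and 7.23, Irf8 with 6.12 and 4.21 and Irf9 with 3.68 and 6.11. Each of Irf7 and Irf2 was separated from its neighbours in this order, whereas Irf8 and Irf9 overlapped. The WT mean of Irf4 stood at percentile 82.2 and that of Irf9 at percentile 40.8 of the level per length over 11285 tested genes with a known length.

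In the KO-labelled libraries the order of levels was another one. Irf1 came first with a level per length of 31.5 and 35.4, followed by Irf5 with 21.5 and 21.9 and Irf4 with 19.6 and 20.6. Irf2 moved from rank 6 to rank 8 of the 8 genes, with 4.43 and 5.15, where it overlapped Irf9 at 4.59 and 5.67. Irf1 made up 23.7% and 22.5% of the summed level of the 8 genes in WT and 27.9% and 28.8% in the KO-labelled libraries. The share of Irf4 was 21.4% and 30.4% in WT and 17.4% and 16.8% in the KO-labelled libraries. Both shares are descriptions and were not tested.

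**Figure D1:**
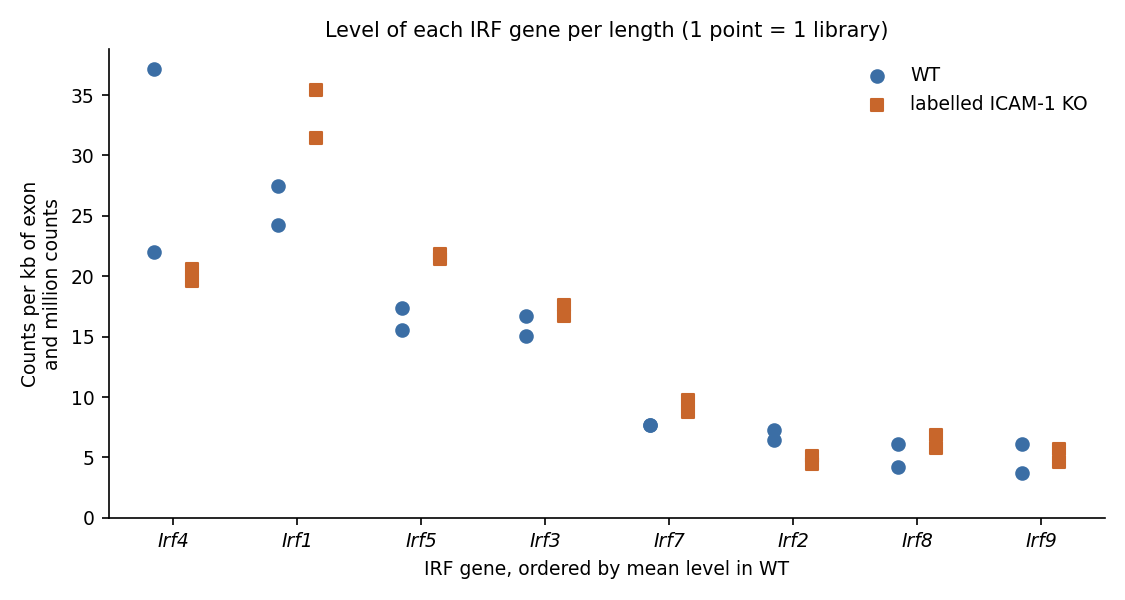
Level per length (vertical axis, counts scaled to exon length in kb and to library total) of the 8 IRF genes, ordered by their mean in WT, with 1 point per library (circles WT, squares labelled ICAM-1 KO). Irf4 has the widest gap between WT libraries, 22 against 37.1, and Irf1 lies highest in both KO-labelled libraries.

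Between genotypes, 1 of the 8 IRF genes passed the test and it was lower, namely Irf2. The test was passed by 13.8% of all genes (adjusted p under 0.05), with 8.8% higher and 4.97% lower, so 1 of 8 (12.5%) is near the share of all genes. No IRF gene passed with a change of at least 2-fold, against 5.47% of all genes. Both KO-labelled libraries lay above both WT libraries for Irf1, Irf5 and Irf7 and below them for Irf2 and Irf4, hence 5 of the 8 genes had groups without overlap, against 59.5% of all genes tested (28.3% higher and 31.3% lower). Before adjustment, 4 of the 8 genes had a p under 0.05, Irf1, Irf2, Irf4 and Irf5, against 30.2% of all genes. The median log2 fold change of the IRF genes was 0.16 and that of all genes tested was 0.011. The 8 normalized counts summed to 402 and 492 in WT and to 407 and 455 in the KO-labelled libraries, so the summed level of the family overlapped between groups.

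**Figure D2:**
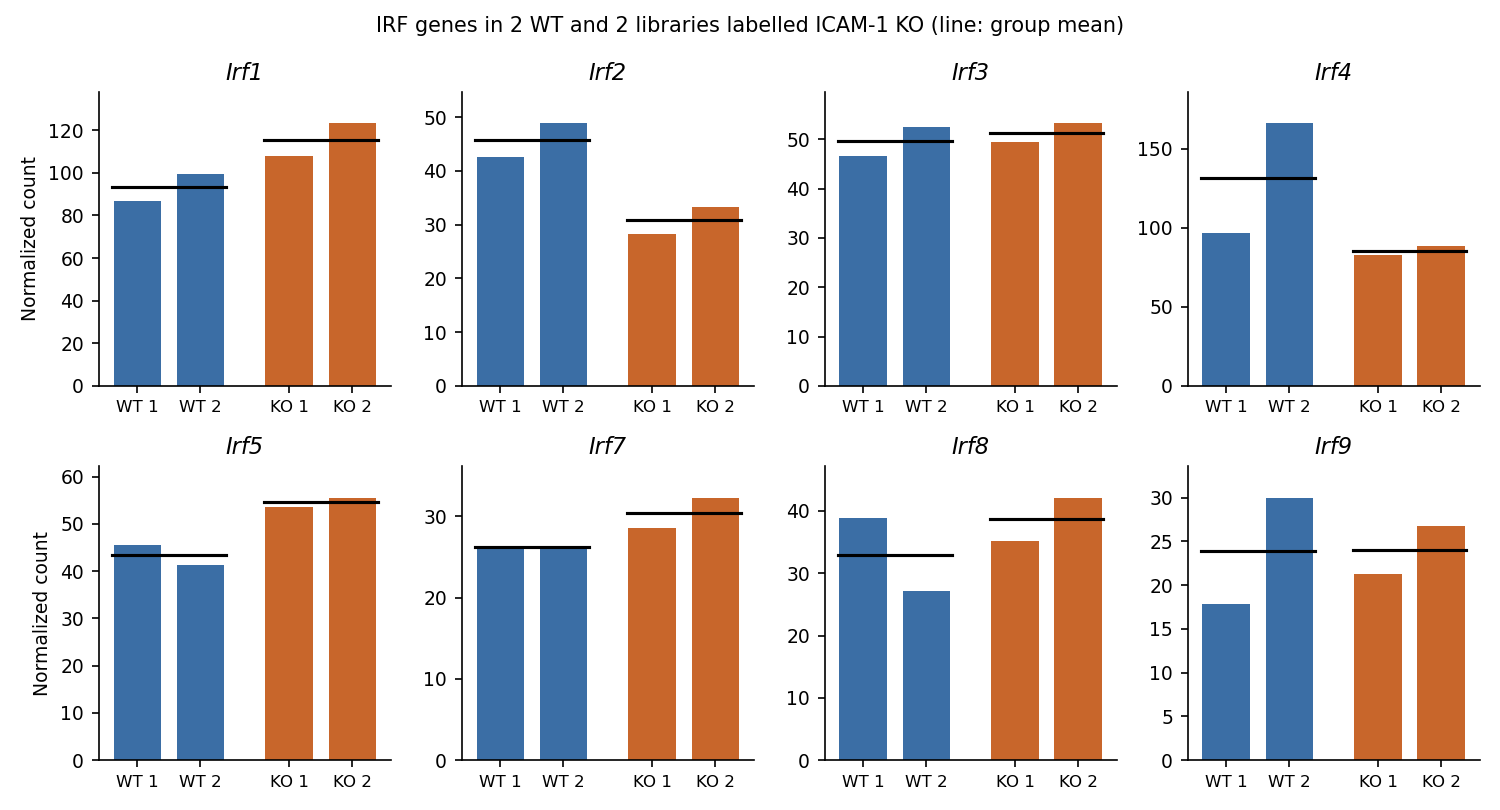
Bars give the normalized count (vertical axis, from 0, a separate scale for each gene) of the 8 IRF genes in the 2 WT and the 2 KO-labelled (KO) libraries, with a line at each group mean. Irf2 stands at 42.7 and 48.8 in WT and at 28.2 and 33.3 in the other group, and Irf4 is high in WT 2 alone, at 166.

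Irf2 encodes the factor that mostly represses interferon-responsive genes and competes with IRF1 for their elements. It lies on the plus strand of chromosome 8 of mm10, from 46739732 to 46847458. It was counted 1291 and 1540 times in WT and 812 and 1045 times in the KO-labelled libraries. Its normalized count, the authors' upper quartile scaled value, was 42.7 and 48.8 in WT and 28.2 and 33.3 in the other group, so that both KO-labelled libraries were the low ones. The mean fell from 45.7 ± 4.34 (SD, n = 2) in WT to 30.8 ± 3.61 (SD, n = 2) in the KO-labelled libraries. Fitted with edgeR, this was -0.54 on the log2 scale (standard error 0.153, 95% interval -0.89 to -0.20, adjusted p = 0.0471 by Benjamini-Hochberg). The direction of Irf2 held in all 13 alternatives and the test was passed in 7 of them, but the adjusted p was close to the threshold and ranged from 0.0157 to 0.103 over the alternatives that kept the 4 libraries. In edgeR, it was 0.0797 without WT replicate 1, 0.188 without WT replicate 2 and 0.204 without ICAM-1 KO replicate 1, with log2 fold changes of -0.64, -0.44 and -0.42. A pair of short genes on the other strand, Gm45479 and Gm45481, lies within Irf2 and had at most 13 counts in any library.

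Irf1, an interferon-induced activator, lies on the plus strand of chromosome 11 from 53770014 to 53778374. It was counted 2629 and 3144 times in WT and 3104 and 3863 times in the KO-labelled libraries. Its normalized count was 86.8 and 99.6 in WT and 108 and 123 in the other group, without overlap, but the difference did not pass the threshold. The log2 fold change was 0.34 (edgeR, 95% interval 0.07 to 0.60, standard error 0.117, unadjusted p = 0.0183, adjusted p = 0.089), and its adjusted p stayed above the threshold in the 13 alternatives. Gm17334, on the other strand within Irf1, had at most 12.3 counts. Because Irf1 and Irf2 act at the same elements, their normalized counts were also divided within each library, a ratio chosen after the values had been seen that does not depend on the scaling of the library. Irf1 stood at 2.04 and 2.04 times Irf2 in the WT libraries and at 3.82 and 3.69 times Irf2 in the KO-labelled libraries. The mean difference of the log2 ratio was 0.88, and the exact permutation test (two-sided) gave p = 0.333, the smallest value that 2 against 2 libraries allow. It was 1 of 7 ratios computed, and Irf7 to Irf3, Irf4 to Irf8 and Irf5 to Irf4 had the same p in this test. Among the others, Irf5 stood at 0.469 and 0.249 times Irf4 in WT and at 0.648 and 0.629 times Irf4 in the KO-labelled libraries, while Irf4 to Irf2 overlapped, at 2.27 and 3.4 in WT against 2.93 and 2.65.

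The regions before the start sites of Irf1, Irf2 and Irf8 are shown since they were the ones that held letters of interferon response elements. RefSeq's table for GRCm38.p6, the assembly of mm10, gave 11 start sites for the 8 genes, and the 250 bases before each were searched on both strands. The interferon-stimulated response element (ISRE) was searched as GAAA followed, after 2 bases of any kind, by another GAAA, and as its reverse complement. The gamma-activated site (GAS) was searched as TTCNNNGAA, which reads the same on both strands, and the AP-1 site as TGANTCA, likewise. An ISRE was found in 1 of the 11 windows, against 2.98% of 32851 windows over all genes, a GAS in 3 of the 11 against 7.02%, and an AP-1 site in 0 of the 11 against 6.75%. Below, all on the plus strand and written from 5′ to 3′, matches are in capitals, and none of them overlaps another. The windows, taken from 250 bases before the start up to the start, are as follows. That of Irf1 is chr11:53769764-53770013, that of Irf2 is chr8:46739495-46739744 and that of Irf8 is chr8:120736108-120736357.
Irf1: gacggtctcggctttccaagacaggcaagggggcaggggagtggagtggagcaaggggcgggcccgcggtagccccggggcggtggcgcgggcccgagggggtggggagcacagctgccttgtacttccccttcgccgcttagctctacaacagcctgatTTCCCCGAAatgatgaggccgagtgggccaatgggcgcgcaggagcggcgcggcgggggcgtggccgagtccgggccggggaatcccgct
Irf2: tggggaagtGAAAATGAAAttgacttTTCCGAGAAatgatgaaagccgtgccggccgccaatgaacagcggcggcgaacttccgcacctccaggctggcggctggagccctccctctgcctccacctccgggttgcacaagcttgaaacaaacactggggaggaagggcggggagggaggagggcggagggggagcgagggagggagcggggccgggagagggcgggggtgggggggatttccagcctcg
Irf8: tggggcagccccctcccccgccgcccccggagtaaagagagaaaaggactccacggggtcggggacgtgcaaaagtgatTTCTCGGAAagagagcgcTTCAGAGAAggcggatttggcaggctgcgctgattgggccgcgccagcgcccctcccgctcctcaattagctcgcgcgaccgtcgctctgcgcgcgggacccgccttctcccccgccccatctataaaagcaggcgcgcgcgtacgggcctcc
Irf1 holds a GAS, TTCCCCGAA, from 90 to 82 bases before its start. Irf2 holds an ISRE, GAAAATGAAA, from 241 to 232 bases before its start, followed by a GAS, TTCCGAGAA, from 224 to 216. Irf8 holds a GAS at 171 to 163 bases, TTCTCGGAA, and another at 153 to 145 bases, TTCAGAGAA. The windows of Irf3, Irf4, Irf5, Irf7 and Irf9 and the second windows of Irf1 and Irf8 held none of these letters, which says nothing of other positions. Both windows of Irf9 lie after 55603571, where the gene starts in the deposited coordinates, so the bases before that position were not searched. These matches are descriptions of the sequence, and binding was not measured.

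Irf4, which pairs with BATF at AP-1 composite elements, was lower in both KO-labelled libraries, but the WT libraries were far apart. It lies on the plus strand of chromosome 13 from 30749226 to 30766976, and no other gene of the table overlaps it. It was counted 2937 and 5239 times in WT and 2384 and 2771 times in the KO-labelled libraries. The normalized count was 97 and 166 in WT and 82.8 and 88.3 in the other group, so WT 2 was high and the other 3 libraries lay within a narrow range. The log2 fold change was -0.59 (edgeR, 95% interval -1.07 to -0.12, standard error 0.209, unadjusted p = 0.0195, adjusted p = 0.0923), which did not pass. Without WT replicate 1 it was -0.93 and without WT replicate 2 it was -0.15, so the size of the difference rests on WT 2. In these fits 1 WT library is assumed to vary like the KO-labelled pair. The spread then comes from that pair, which lay close together, and from the spread of other genes. Without ICAM-1 KO replicate 2 the log2 fold change was -0.65. The direction of Irf4 held in all 13 alternatives, but the test was passed in 3 of them. Over the alternatives that kept the 4 libraries, the adjusted p ranged from 0.0374 (edgeR with the replicate block) to 0.294 (DESeq2). The gap between the WT libraries was 0.77 on the log2 scale, wider than that of 92.7% of the genes tested, and the gap between the KO-labelled libraries was 0.093. Of the genes tested, those with the profile nearest to Irf4 over the 4 libraries, by Euclidean distance of centred log2 normalized counts, were Lhpp (distance 0.0979) and the interferon-stimulated gene Isg15 (distance 0.105). Isg15 had normalized counts of 7.59 and 12.4 in WT and 6.21 and 6.24 in the KO-labelled libraries.

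Plasma cells and regulatory T cells also express Irf4, and their markers were measured beside it. Of 7 plasma cell markers tested, 6 rose and 0 fell, against 8.8% and 4.97% of all genes tested. The summed normalized count of this list was 301 and 578 in WT and 797 and 988 in the KO-labelled libraries. Jchain, Xbp1 and Mzb1 were the most abundant by their mean over the 4 libraries, of which Jchain did not pass, and Mzb1 had 12.9 and 42.7 in WT against 82.2 and 100 in the other group. The plasma cell sum and Irf4 were thus both higher in WT 2 than in WT 1, while between the groups they differed in opposite directions. Of 8 regulatory T cell markers, 4 rose and 1 fell, with sums of 1345 and 1699 in WT and 1520 and 1636 in the other group. Foxp3, the factor that defines these cells, had 42.4 and 53.9 in WT against 157 and 181 in the other group (log2 fold change 1.84, adjusted p = 0.000224, edgeR), and Ikzf2, Lrrc32 and Tigit also rose, by 1.53, 1.75 and 0.76 on the log2 scale, these 4 genes being named after their values were seen. Of the most abundant markers of the list, Ctla4 and Tnfrsf18 did not pass the test and Il2ra, which ILC2s also express, fell by 0.51 on the log2 scale (adjusted p = 0.0133, edgeR). Prdm1 of the plasma cell list and Ctla4 and Tigit of the regulatory T cell list are also known to depend on IRF4. The part of these cells in the level of Irf4 was not tested.

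IRF3, IRF7 and IRF5 act below innate sensors, and none of their genes passed the test. Irf3 lies on chromosome 7 from 44997648 to 45002848 and had normalized counts of 46.7 and 52.5 in WT and 49.5 and 53.2 in the KO-labelled libraries, with overlapping groups. Its log2 fold change was 0.08 with a 95% interval from -0.21 to 0.37 (adjusted p = 0.738, edgeR). Bcl2l12 overlaps its start on the other strand and had 270 to 452 counts. Irf7, the interferon-inducible relative of Irf3, lies on the minus strand of chromosome 7 from 141262706 to 141266481. Its normalized count was 26.2 and 26.3 in WT and 28.5 and 32.3 in the KO-labelled libraries, without overlap. The log2 fold change of Irf7 was 0.24 (95% interval -0.12 to 0.60, adjusted p = 0.347, edgeR), and 0.13 without ICAM-1 KO replicate 2. The WT libraries of Irf7 were 0.0091 apart on the log2 scale, and the KO-labelled ones 0.18 apart. Phrf1, on the other strand, reaches the last bases of Irf7 and had 1536 to 1873 counts. The genes nearest to the profile of Irf7 were Spg21 (distance 0.00594) and Gm8203 (distance 0.0146).

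Irf5, which is known from macrophages and B cells, had normalized counts of 45.5 and 41.3 in WT and 53.7 and 55.6 in the KO-labelled libraries, so both of the latter were higher. It lies on chromosome 6 from 29526625 to 29541871, and its end overlaps Tnpo3 on the other strand, which had 3477 to 3532 counts, more than Irf5 itself with 1303 to 1743. Whether the counting used strand is not given in the sources used here, so reads in such overlaps cannot be assigned to 1 gene with certainty. The log2 fold change was 0.36 (edgeR, 95% interval 0.08 to 0.64, standard error 0.125, unadjusted p = 0.0182, adjusted p = 0.0884). This was the largest positive difference among the 8 genes, and it did not pass in the 13 alternatives.

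Irf8, a factor of macrophages, dendritic cells and B cells, was spread within both groups. It lies on chromosome 8 from 120736358 to 120756694, inside the long gene model Gm20388 of the same strand, which had 1145 to 1630 counts against 855 to 1321 for Irf8, and reads can be divided between both. Its normalized count was 38.9 and 27.1 in WT and 35.2 and 42.1 in the KO-labelled libraries, so the groups overlapped. The log2 fold change was 0.26 (95% interval -0.18 to 0.70, adjusted p = 0.407, edgeR). It was 0.54 without WT replicate 1, 0.020 without WT replicate 2, 0.39 without ICAM-1 KO replicate 1 and 0.11 without ICAM-1 KO replicate 2. Its nearest profiles over the 4 libraries were those of Rtl8b (distance 0.0224) and Prkra (distance 0.0385).

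Markers of the cells that are known for Irf5 and Irf8 were higher in the KO-labelled libraries, with median log2 fold changes of 1.17 for macrophages and monocytes, 0.86 for dendritic cells and 0.72 for B cells. Of 15 macrophage and monocyte markers tested, 11 rose and 0 fell, against 8.8% and 4.97% of all genes tested, a share that also stands beside the lists below. The sum of the macrophage and monocyte list was 567 and 574 in WT and 991 and 1212 in the KO-labelled libraries. Lyz2, the lysozyme of these cells, had 169 and 172 in WT against 344 and 577, and Cd14 had 29.8 and 29.6 against 62.1 and 69.3. Ccr2, more abundant than Cd14, had 254 and 236 against 323 and 279 and did not pass (adjusted p = 0.0563, edgeR). Of 11 dendritic cell markers, 6 rose and 1 fell (Bst2), with sums of 620 and 642 in WT and 837 and 957 in the other group. Of 10 B cell markers, 6 rose and 0 fell, with sums of 209 and 183 in WT and 390 and 321 in the other group. Each of these sums was higher in both KO-labelled libraries, whereas Irf8 itself overlapped, and the part of these cells in the levels of Irf5 and Irf8 was not tested. Of the other marker lists, 7 of 12 T cell, 5 of 8 neutrophil, 11 of 11 endothelial, 5 of 9 epithelial and 1 of 6 fibroblast markers rose with 0 lower, and 3 of 10 eosinophil, basophil and mast cell markers rose with 2 lower.

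**Figure D3:**
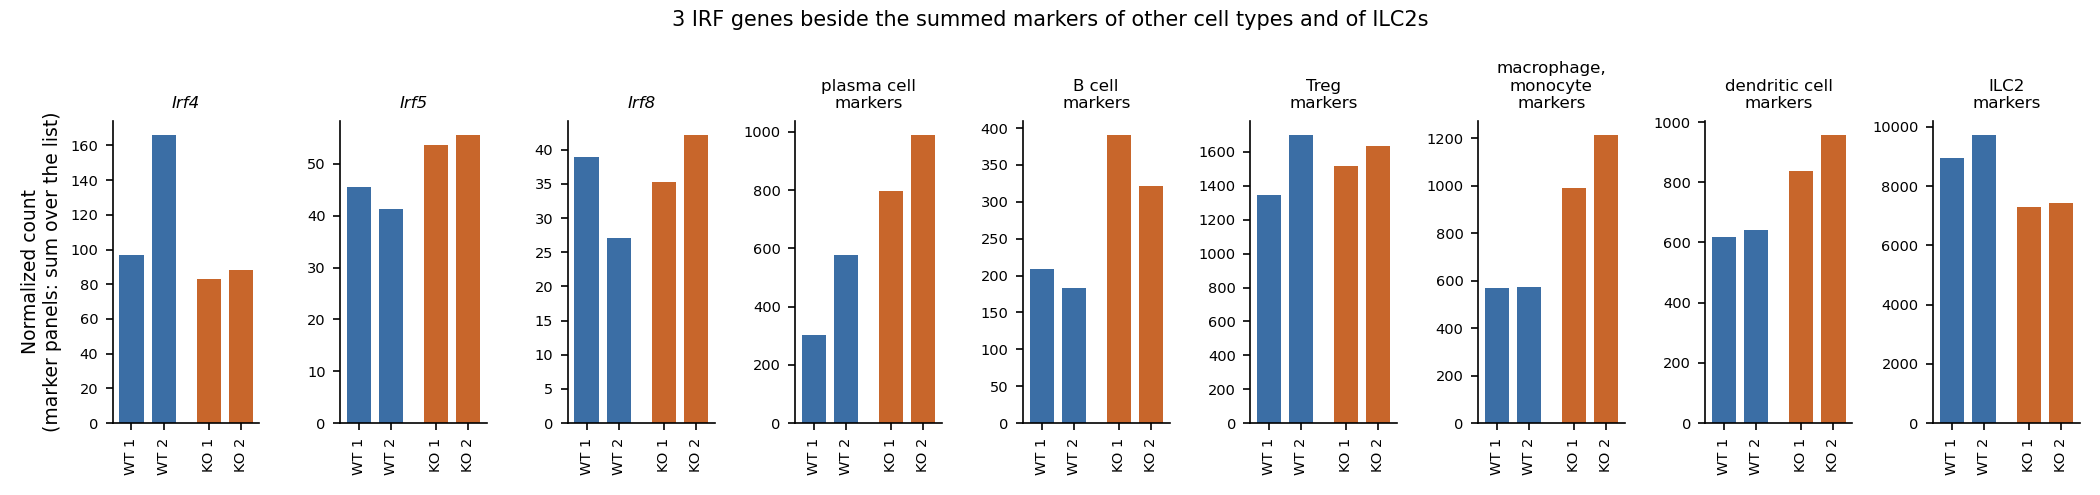
Normalized counts (vertical axes, from 0, a separate scale in each panel) of Irf4, Irf5 and Irf8 and the summed normalized counts of 6 marker lists in the 2 WT and the 2 KO-labelled (KO) libraries. The macrophage and monocyte sum goes from 567 and 574 in WT to 991 and 1212, while Irf8 overlaps between the groups.

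Irf9, whose product acts after type I interferon, had normalized counts of 17.9 and 30 in WT and 21.3 and 26.7 in the KO-labelled libraries. The WT libraries were thus the lowest and the highest of the 4, with a gap of 0.75 on the log2 scale, wider than that of 92.1% of the genes tested. Its log2 fold change was 0.03 (95% interval -0.54 to 0.60, adjusted p = 0.946, edgeR), an interval that spans both directions. Irf9 lies on chromosome 14 from 55603571 to 55610030, and its first bases overlap Rnf31 on the same strand, so reads there can be divided between both genes. Stat2, whose product partners IRF9, was looked at beside it after its values had been seen. It had 21.6 and 15.3 in WT and 33 and 23.1 in the other group, with an adjusted p of 0.107 (edgeR).

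**Figure D4:**
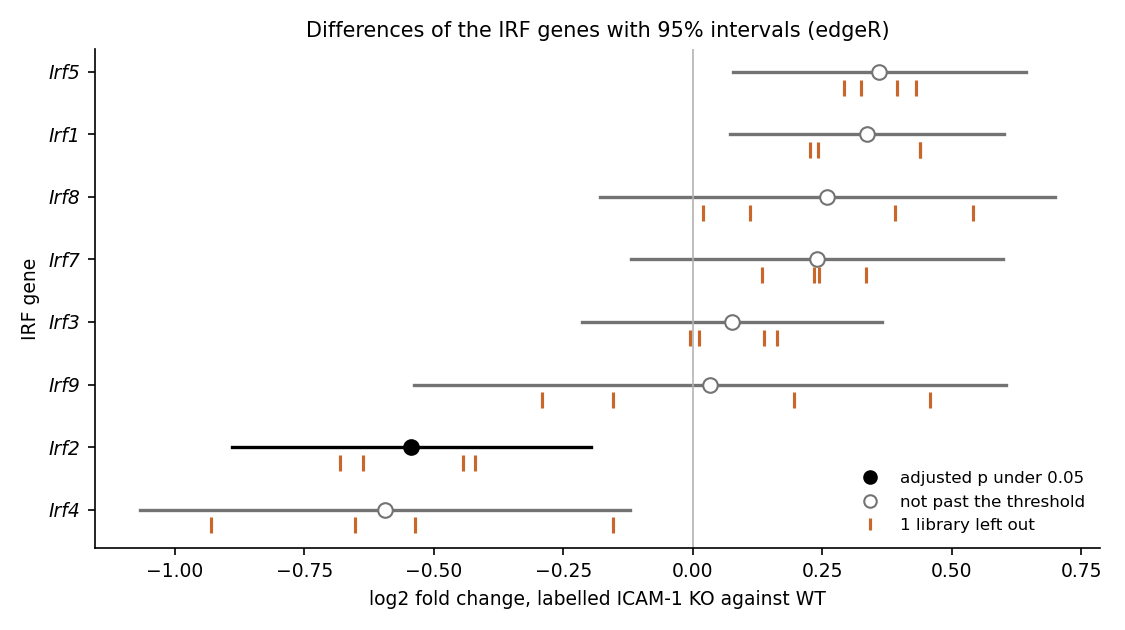
Log2 fold change (horizontal axis, KO-labelled libraries against WT) of the 8 IRF genes with 95% intervals from edgeR, filled where the adjusted p is under 0.05, with orange ticks for the fits that leave out 1 library. Irf2 at -0.54 is the single filled point, and the ticks of Irf4 reach from -0.93 to -0.15.

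Among the sensors, adaptors and kinases that act on IRF3, IRF5 and IRF7, the genes that passed edgeR's test were higher in the KO-labelled libraries, while DESeq2 called 6 higher and 1 lower and limma with a pseudocount of 1 called 5 higher and 1 lower. Of 29 genes listed, 24 were tested, 5 rose and 0 fell (20.8% past the test against 13.8% of all genes), with a median log2 fold change of 0.08. Groups did not overlap for 9 of the 24 genes that were higher and 7 that were lower, against 28.3% and 31.3% of all genes tested. Tank, a scaffold of TBK1, had 56.6 and 56.8 in WT and 92.6 and 107 in the KO-labelled libraries (log2 fold change 0.85, adjusted p = 0.00324, edgeR). The innate receptor gene Tlr2 was rare and had 6.57 and 3.17 against 11 and 16.3 (log2 fold change 1.53, adjusted p = 0.0287, edgeR), the largest change of the list. Macrophage and monocyte markers, cells that also express Tlr2, were higher in the same libraries (11 of 15, against 8.8% of all genes). Cd14 had 29.8 and 29.6 against 62.1 and 69.3, and the part of these cells in the level of Tlr2 was not tested. Unc93b1, which carries Toll-like receptors to endosomes, had a log2 fold change of 0.58 (adjusted p = 0.0236, edgeR). The remaining genes past the test, named after their values were seen, were the IRF3 kinase gene Ikbke, which was at 0.53, and Trim25, an activator of RNA sensing, which was at 0.54. The most abundant members were Tmem173, which encodes the adaptor STING and had 181 and 157 in WT against 133 and 140, then Irak1 and Nlrc3, and none of them passed. With any library left out, fewer genes of the list passed, as fewer did over all genes.

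The receptor genes Ifnar1 and Ifngr1 were well expressed in the 4 libraries, and Ifng, the gene of interferon gamma, named after its values were seen, was rare, with a normalized count of 2.48 and 2.84 in WT and 1.59 and 3.27 in the KO-labelled libraries. Of 24 genes listed for interferons, receptors and the JAK-STAT chain, 18 were matched in the count table and 16 were tested, of which 2 rose and 0 fell (12.5% past the test against 13.8% of all genes, thus near that share), with a median log2 fold change of 0.19. Ifnar1, a chain of the type I interferon receptor, had 144 and 145 in WT and 224 and 251 in the KO-labelled libraries (log2 fold change 0.74, standard error 0.0964, adjusted p = 0.00247, edgeR). The kinase gene Jak2 rose by 0.32 on the log2 scale (adjusted p = 0.0365, edgeR). Jak1 was the most abundant member, at 767 and 710 in WT and 715 and 655 in the other group, and did not pass. Ifngr1, the ligand-binding chain for interferon gamma, had 325 and 435 in WT and 475 and 516 in the other group without passing (adjusted p = 0.0704, edgeR). Without WT replicate 1, fewer genes of the list passed, as fewer did over all genes.

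Among partners and cofactors of IRFs, genes moved in both directions. Of 26 listed, 25 were tested, 3 rose and 2 fell (20% past the test against 13.8% of all genes), with a median log2 fold change of 0.013. Batf, the AP-1 family partner of IRF4, had 146 and 149 in WT and 105 and 106 in the KO-labelled libraries, or -0.46 on the log2 scale (edgeR, standard error 0.0914, adjusted p = 0.0142). Etv6, an ETS family repressor, had 98.4 and 113 against 81.4 and 72 (log2 fold change -0.44, adjusted p = 0.0378, edgeR). Spib, an ETS partner of IRF4 and IRF8 that is typical of B cells and plasmacytoid dendritic cells, was rare, at 9.15 and 9.53 in WT against 23 and 14.4 (log2 fold change 1.02, adjusted p = 0.0393, edgeR). Nfatc1 and Ikzf3 were higher by 0.46 and 0.42 on the log2 scale. Junb, Stat3 and Jun were the most abundant by their mean over the 4 libraries, and Junb had 2121 and 1725 in WT and 1502 and 1783 in the other group, with overlap. With either WT library left out, fewer genes of this list passed (edgeR), as fewer did over all genes. Whether the list differs from all genes in this was not tested.

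Interferon-inducible target genes of IRFs were divided between both directions. Of 60 listed, 49 were tested, 5 rose and 6 fell (22.4% past the test against 13.8% of all genes), and the median log2 fold change was -0.03. The largest decrease was that of Bst2, which encodes tetherin and also stands among the dendritic cell markers, from 83.5 and 87.1 in WT to 36.3 and 42.2 (log2 fold change -1.09, adjusted p = 0.00146, edgeR). Irgm1, an immunity-related GTPase, had 39 and 40.5 in WT against 23.4 and 21.2, and Gbp6 had 28.7 and 26 against 15.3 and 17.2. The most abundant genes by their mean over the 4 libraries were Psmb8, an immunoproteasome subunit, and Lgals3bp, which both fell, by 0.35 and 0.64 on the log2 scale, and Samhd1, which did not pass. In the other direction, Ifi27l2a had 17.9 and 31.9 in WT against 55.8 and 59.3 (log2 fold change 1.23, adjusted p = 0.0106, edgeR). Gbp7 had 56.4 and 60.7 against 97.2 and 120, and Gbp3 had 39.6 and 47.6 against 71.3 and 67.7. The Gbp genes are close relatives whose reads the counting can split, so that their opposite directions are uncertain. With either WT library or ICAM-1 KO replicate 1 left out, fewer genes of this list passed, as fewer did over all genes.

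Genes that depend on IRF4 in lymphocytes moved in both directions. The list does not record which of them IRF4 raises and which it lowers, so their directions were not read against that of Irf4. Of 21 listed, 19 were tested, 4 rose and 5 fell (47.4% against 13.8% of all genes), with a median log2 fold change of 0.10. The list was put together with results of these libraries known and shares Il5, Il13, Gata3, Il1rl1 and Icos with the ILC2 markers and Batf with the partners. Prdm1 is also a plasma cell marker, and Tigit and Ctla4 are also regulatory T cell markers. Of these lists 6 of 7 and 4 of 8 genes rose, and of T cell markers 7 of 12, against 8.8% of all genes. The part of these cells was not tested. The list's count is no independent evidence. The genes that fell were the cytokine genes Il9 (log2 fold change -1.58), Il13 (-1.45) and Il5 (-0.76), the chemokine receptor gene Ccr8 (-0.45) and Batf (-0.46). Those that rose were Il10 (1.31), Tcf7 (1.13), Prdm1 (0.83) and the inhibitory receptor gene Tigit (0.76). Ccr8 had 584 and 515 in WT and 403 and 389 in the KO-labelled libraries, and Tigit had 16.2 and 24 against 31.9 and 34.7. Gata3 and Il1rl1, both abundant, did not pass. Fewer genes of the list passed with any library left out, as over all genes.

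**Figure D5:**
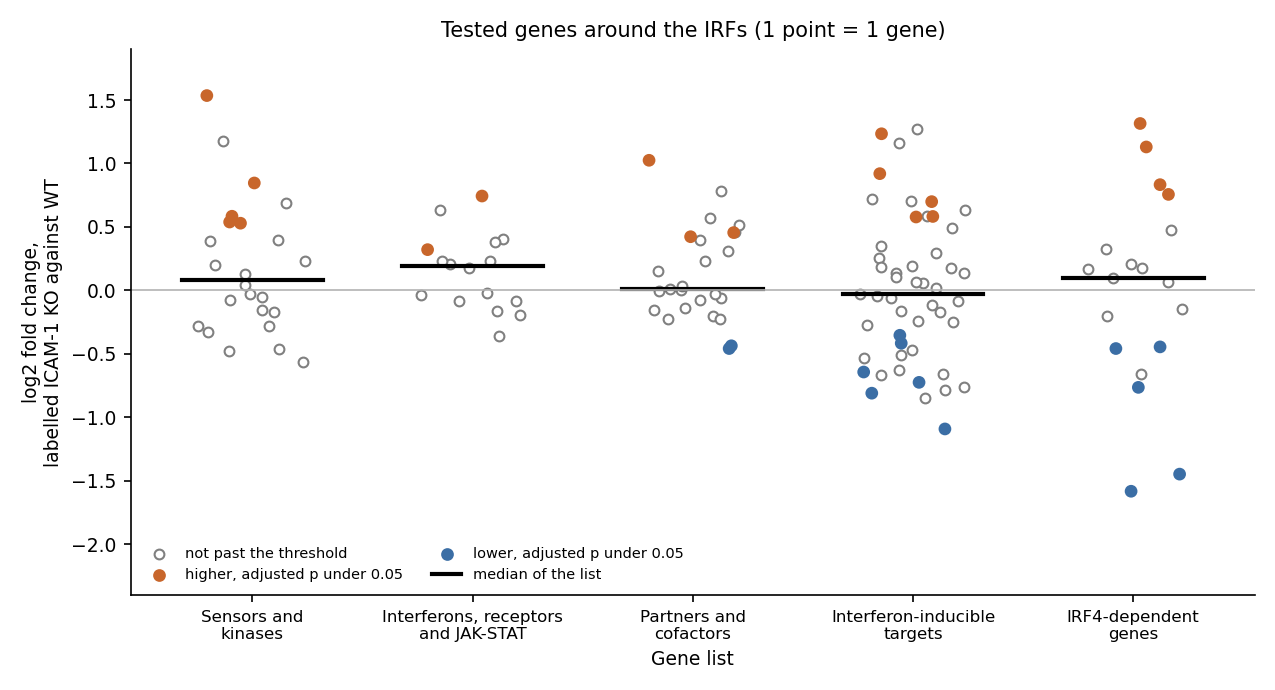
Log2 fold change (vertical axis, KO-labelled libraries against WT) of the tested genes of 5 lists around the IRFs, 1 point per gene, filled where the adjusted p is under 0.05, with a bar at the median. Filled points lie above 0 alone for sensors and kinases (5) and for interferons, receptors and JAK-STAT (2), and on both sides for the other lists.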

How the data were processed

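Group 2 innate lymphoid cell RNA was sequenced in 2 WT and 2 ICAM-1 KO libraries, grouped by the sample titles. Alignment by the authors used STAR and the mm10 genome, and they deposited estimated counts per gene from Partek against GENCODE M20, in which a read can be divided between genes, and whether strand was used is not given in the sources used here. The authors also deposited upper quartile normalized counts, a signal in which each value is the count plus 1 times 1 factor per library, and these are the normalized counts given here.

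Counts were rounded and fitted over all genes with edgeR 4.0.16 in R 4.3.3 (upper quartile factors, glmQLFit with legacy set to FALSE, no covariate), and standard errors and intervals come from the quasi-likelihood F statistic. As in the study's methods, normalized counts of a gene had to average 1 or more and to sum to 10 or more, and 11711 were tested with Benjamini-Hochberg adjustment. The study's own test, GSA, was not run. All 8 IRF genes passed this filter. Passing the test means an adjusted p under 0.05. Depth was 24796148 to 28782471 counts. With 2 pooled libraries per group, p-values rest on the spread between pools, not between mice. In edgeR's test the spread of each gene is also drawn towards that of the other genes. It therefore does not come from the pools' values of that gene alone. Exon lengths came from GENCODE M21, matched by position for 21853 of 22558 genes, and promoters from RefSeq. The fits were tested on simulated data.

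The members and the gene lists were chosen with earlier results of these data known. Named are the 8 genes, Icam1, the 3 most abundant and up to 3 most changed genes in each direction of each pathway list, up to 3 abundant markers, the 2 nearest profiles of Irf4, Irf7 and Irf8, and overlapping genes. Alternatives were TMM factors, DESeq2 1.42.0, no filter, at least 10 counts in every library, filterByExpr, the older form of edgeR's test, limma 3.58.1 on the log2 of the normalized count plus 1 or plus 0.1, a replicate block and leaving out each library.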

Additional observations from a re-analysis of the deposited data

How the results depend on the processing

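Of the 8 IRF genes, 6 kept the direction of their log2 fold change in all 13 alternatives. The count of IRF genes past the test was 1 and became 0 without a filter on low counts, with filterByExpr and with edgeR's older quasi-likelihood fit, where 4 of the 8 had an unadjusted p under 0.05, and 2 with the replicate block. Leaving out 1 library gave 0 to 2. For Irf2 the log2 fold change was -0.59 without a filter, -0.57 with filterByExpr and -0.54 with the older fit (adjusted p = 0.103, 0.0522 and 0.0598, edgeR), and it ranged from -0.68 to -0.42 with a library left out. Irf4 passed with the replicate block (log2 fold change -0.55, adjusted p = 0.0374, edgeR) and ranged from -0.93 to -0.15 with a library left out. Irf9 was at -0.012 without a filter and ranged from -0.29 to 0.46 with a library left out, Irf3 ranged from -0.0058 to 0.16, Irf7 from 0.13 to 0.34 and Irf8 from 0.020 to 0.54. Without a filter, 22158 genes were tested, and the genes past the test fell from 1612 to 535 over all genes, from 5 to 1 for sensors and kinases, from 2 to 1 for interferons, receptors and the JAK-STAT chain, from 5 to 1 for partners, from 11 to 5 for inducible targets and from 9 to 5 for genes that depend on IRF4. With filterByExpr and with the older fit, 3 sensors and kinases passed, and with filterByExpr 1 gene of the interferon and JAK-STAT list did. That list had 4 genes past the test with DESeq2 and 4 with the replicate block. With a library left out, the genes past the test ranged from 681 to 1305 over all genes and, in the order of the lists above, from 1 to 3, 1 to 2, 0 to 5, 5 to 11 and 4 to 8. Apart from fewer or more genes tested and fewer libraries, the cause of these changes was not tested. Both groups carry the replicate numbers 1 and 2, which share a number only: over the genes tested, the gap between replicates in WT and that in the other group had a correlation of -0.0663, and with the block 1715 genes passed in place of 1612. A group left with 1 library was assumed to vary like the other.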

Other observations

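The genes of the IRF2-binding proteins, cofactors named for their binding to IRF2, did not pass the test, and were looked at after their values were seen. Irf2bp2 had normalized counts of 330 and 242 in WT and 271 and 302 in the KO-labelled libraries (edgeR, log2 fold change 0.03, 95% interval -0.28 to 0.35). Irf2bp1 had 24.5 and 16.7 in WT and 19.6 and 18.7 in the other group, and Irf2bpl had 34.3 and 24.1 in WT and 33.5 and 33.7 in the other group. All 3 genes were lower in WT 2 than in WT 1, by 0.45 to 0.55 on the log2 scale, whereas Irf4 and Irf9 were higher in WT 2, by 0.77 and 0.75. Spi1, which encodes the IRF4 and IRF8 partner PU.1, had 16 and 11.4 in WT and 16.7 and 20.2 in the KO-labelled libraries (edgeR, adjusted p = 0.231, log2 fold change 0.46), and it was lower in WT 2 than in WT 1, as Irf8 was.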
